A study of Schizosaccharomyces pombe with 8 samples.

Results

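A set of 6 genes of the fission yeast Schizosaccharomyces pombe that overlap in 3 pairs on opposite strands of chromosome I were examined, out of the 7014 genes listed in the Lsm8 immunoprecipitation (IP). The pairs are cox16 (SPAC1486.08) with the non-coding RNA SPNCRNA.895, cox8 (SPAC24C9.16c) with mvd1 (SPAC24C9.03), and mug134 (SPAC10F6.16) with SPAC10F6.17c. They were chosen because both partners had many more reads in the Lsm8 IP than in the control IP, so these IP values are a description and carry no test. Read counts from a stranded RNA-Seq experiment, which were not used to choose the genes, were analyzed for 5 of the 6, all but SPNCRNA.895. These 5 belong to the 40 RNAs with RNA-Seq counts analyzed here, which the authors listed for their Lsm8 IP signal and which are not a sample of all genes.

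Lsm8 is the subunit that distinguishes the Lsm2-8 ring, a complex of 7 Sm-like proteins, from the cytoplasmic Lsm1-7 ring. Lsm2-8 binds the oligouridine end of the U6 spliceosomal RNA and, in fission yeast, the mature form of the telomerase RNA TER1. In a compact genome neighboring genes often overlap, either tail to tail or with a non-coding RNA on the other strand. A read without strand information then fits both genes of such a pair, whereas a stranded library tells the partners apart. The proteins encoded here have other roles. Cox8 is a nuclear-encoded subunit of cytochrome c oxidase and Cox16, as known from Saccharomyces cerevisiae, helps to assemble that enzyme. Mvd1 is mevalonate diphosphate decarboxylase of the sterol pathway, Mug134 (also named Igo1) is an endosulfine-type inhibitor of protein phosphatase 2A, and SPAC10F6.17c is annotated as a phosphatase of pyruvate dehydrogenase.

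The study asked how the La-related protein Pof8 contributes to telomerase and to Lsm2-8 loading, and comprised 8 libraries. For RNA-Seq, 3 libraries came from pof8Δ cells (pof8::kanMX6) and 3 from pof8+ cells, both h- and both carrying the markers ura4-D18, his3-D1, leu1-32 and ade6-M216. For RIP-Seq, 1 library came from an anti-Myc IP of a strain with the same markers and 13 Myc epitopes on Lsm8 (lsm8-myc13-natMX6), and 1 from a control IP whose strain is not given in the sources used here. Nothing says that replicates were separate cultures, so p-values measure only the spread between these libraries, which may be technical. The Lsm8 IP held 6604836 counted reads, against 942080 assigned reads in the control IP. RNA-Seq totals were between 62672693 and 72951191 reads for pof8Δ, against 49448968 to 60098565 for pof8+. The deleted gene pof8 is not among the RNAs with counts analyzed here, so the genotype labels were not checked on it.

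The 3 pairs differed in how the partners lie on each other. Lengths are from the ASM294v3 annotation, which is a later build than the ASM294v2 assembly used by the authors, and some gene models differ between them. SPNCRNA.895 is a single exon of 520 nt that runs against the 5′ end of cox16 (2264 nt, 2 exons). The overlap of 481 nt is 92.5% of SPNCRNA.895 and 21.2% of cox16, and it takes in 303 nt of the cox16 coding sequence. The gene cox8 (559 nt, 4 exons) lies almost wholly inside the part of mvd1 that follows the mvd1 stop codon. Their overlap of 558 nt is 99.8% of cox8 and 25.4% of mvd1 (2196 nt, 1 exon), with 200 nt of cox8 coding sequence and 0 nt of mvd1 coding sequence. The genes mug134 (1290 nt, 3 exons) and SPAC10F6.17c (1727 nt) meet tail to tail over 215 nt, which is 16.7% of mug134 and 12.4% of SPAC10F6.17c and holds 0 nt of either coding sequence.

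**Figure D1:**
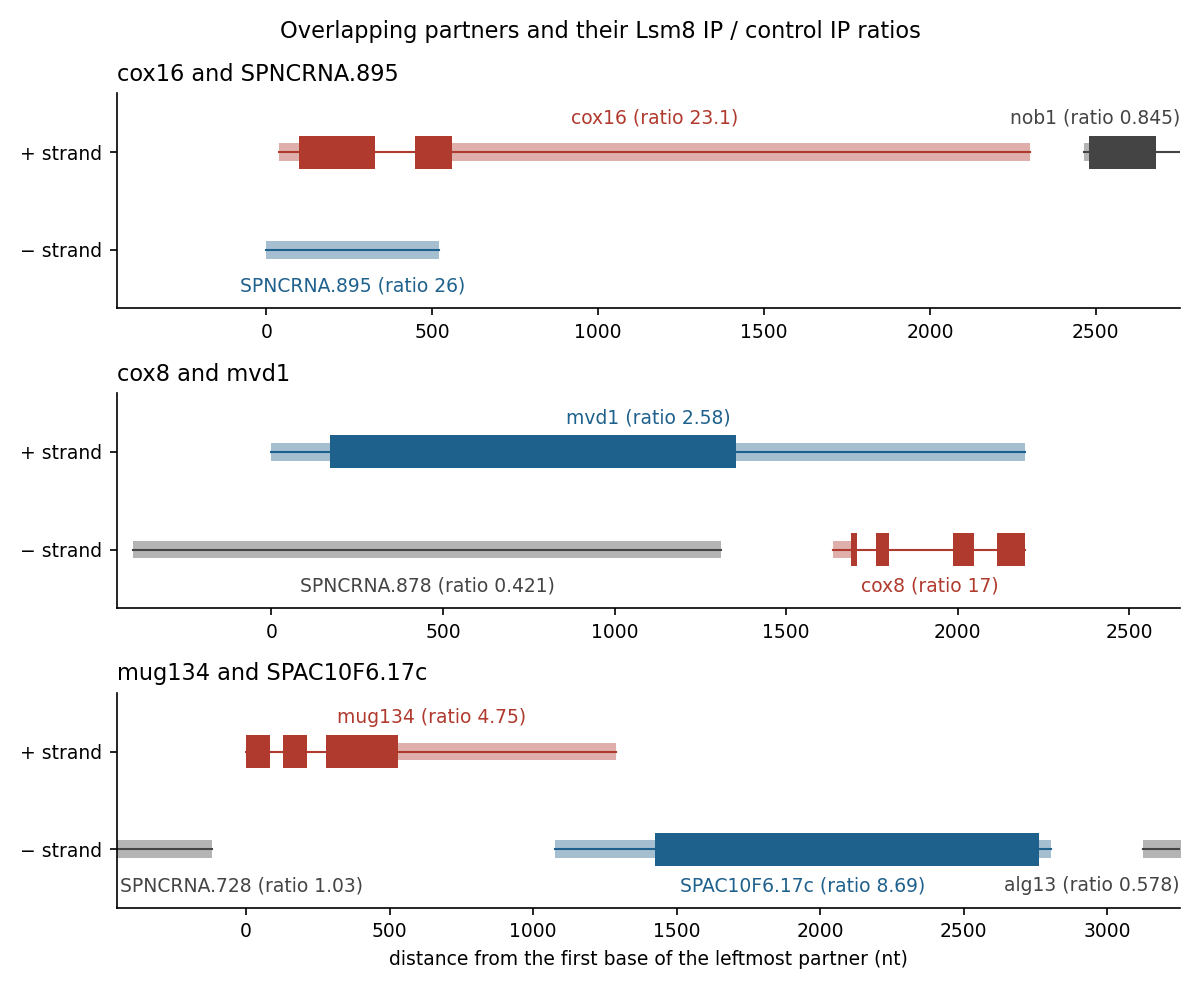
Maps of the 3 pairs in the ASM294v3 annotation. The horizontal axis is the distance in nt from the first base of the leftmost partner, tall boxes are coding sequence, low boxes are other exon sequence, thin lines are introns, and genes on the + strand are drawn above those on the − strand. Partners are red and blue and the closest named neighbors grey, each with its Lsm8 IP to control IP ratio. The neighbors mrpl19, cyt2 and med9 lie outside the maps. The shared stretch is the 5′ end of cox16, nearly all of cox8, and the tails of mug134 and SPAC10F6.17c.

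In the Lsm8 IP, the 6 genes had between 1307 and 2700 reads, against 39 to 354 reads in the control IP. The authors divided each count by the median count of its library, 96 reads for the Lsm8 IP and 37 reads for the control IP, and the result is called a normalized count. An RNA was called enriched where the normalized count was at least 10 higher in the Lsm8 IP and the ratio of both was above 2. All 6 genes met this rule by choice, as did 35 of all 7014 genes (0.499%), and nothing is read from that count. Intervals given for ratios are exact 95% Clopper-Pearson intervals and cover counting error only, since each IP is 1 library. With each library scaled to its total instead of its median, all 6 ratios were lower and 3 genes (cox16, SPNCRNA.895 and cox8) met the rule. Those totals include the U4 and U6 spliceosomal RNAs, with 3494435 and 1131410 reads in the Lsm8 IP, against 2889 and 14329 in the control IP. With totals that leave out the spliceosomal RNAs (snRNAs), all 6 ratios were higher than with the medians and all 6 genes met the rule.

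The pair of cox16 and SPNCRNA.895 had the most Lsm8 IP reads of the 3 pairs. The cox16 gene had 2700 reads in the Lsm8 IP, against 45 in the control IP, that is, normalized counts of 28.1 and 1.22 and a ratio of 23.1 (17.2 to 31.8). SPNCRNA.895 had 2633 reads in the Lsm8 IP, against 39 in the control IP, or normalized counts of 27.4 and 1.05 and a ratio of 26.0 (19.0 to 36.7). The intervals of the 2 ratios overlap. Among the 35 enriched RNAs they stood at rank 11 and rank 10 by ratio.

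The pair of cox8 and mvd1 had similar counts in the Lsm8 IP but not in the control IP. The cox8 gene had 1946 reads in the Lsm8 IP, against 44 in the control IP, or normalized counts of 20.3 and 1.19 and a ratio of 17.0 (12.6 to 23.5). For mvd1 there were 2367 reads in the Lsm8 IP, against 354 in the control IP, or normalized counts of 24.7 and 9.57 and a ratio of 2.58 (2.30 to 2.89). The mvd1 gene thus had the most control IP reads and the lowest ratio of the 6, at rank 31 of the 35 enriched RNAs, while cox8 stood at rank 14. Scaled to library totals, the ratio of mvd1 was 0.954, and with totals that leave out the snRNAs it was 3.16.

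The pair of mug134 and SPAC10F6.17c had the fewest Lsm8 IP reads. The mug134 gene had 1478 reads in the Lsm8 IP, against 120 in the control IP, or normalized counts of 15.4 and 3.24 and a ratio of 4.75 (3.94 to 5.77). SPAC10F6.17c had 1307 reads in the Lsm8 IP, against 58 in the control IP, or normalized counts of 13.6 and 1.57 and a ratio of 8.69 (6.68 to 11.5). They stood at rank 24 and rank 18, and the partner with fewer reads had the higher ratio, as in the other 2 pairs.

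**Figure D2:**
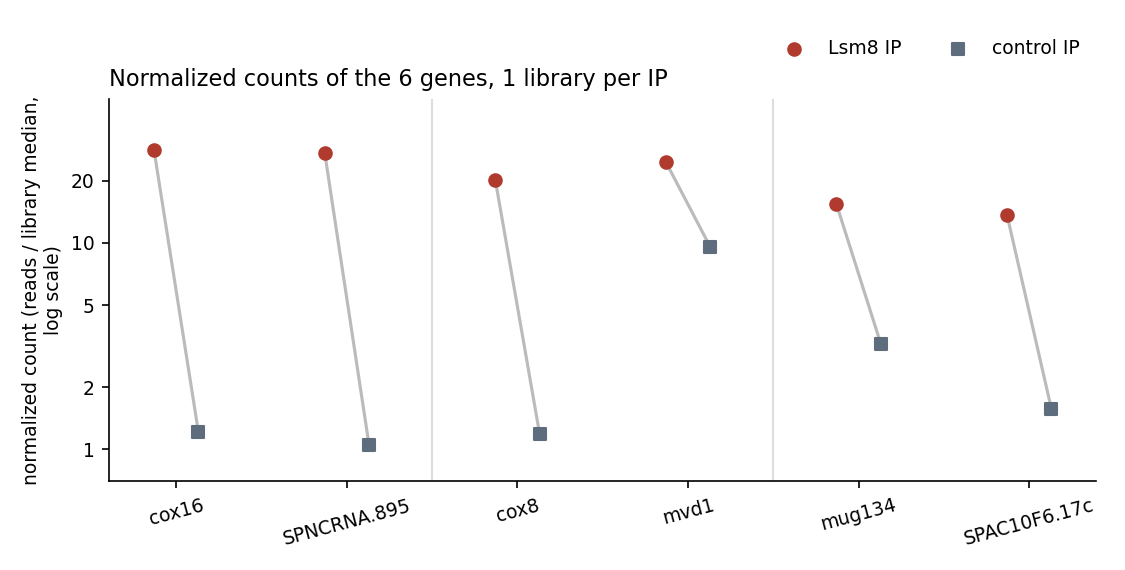
Normalized counts of the 6 genes in the Lsm8 IP (red circles) and the control IP (grey squares), 1 library each, on a log scale and grouped by pair. Lsm8 IP values lie between 13.6 and 28.1, and mvd1 stands out by its control IP value of 9.57.

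Other RNAs lay on both sides of the thresholds. Just inside were hht2, a histone H3 gene, with a ratio of 2.25, SPAC343.20 with a ratio of 2.40, and mrps16, a mitochondrial ribosomal protein gene, with an excess of 10.3 normalized counts. Just outside were gpm1, a glycolytic enzyme gene, with a ratio of 1.89, SPMIT.10 (atp9 of the mitochondrial genome) with a ratio of 1.86, and SPBP23A10.11c with an excess of 9.98. Of the 6 genes, mvd1 was closest to the ratio threshold and SPAC10F6.17c, with an excess of 12.05, closest to the minimum excess.

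With the authors' median scaling, the partners of 2 pairs had closely matching excesses and those of cox8 and mvd1 less so. Subtracting the control IP from the Lsm8 IP left 26.9 normalized counts for cox16 and 26.4 for SPNCRNA.895, a quotient of 1.02. For mug134 and SPAC10F6.17c the excess was 12.15 and 12.05 normalized counts, a quotient of 1.01. For cox8 and mvd1 it was 19.1 and 15.1, a quotient of 1.26. With the control IP scaled by library totals, an alternative added after seeing the data, the quotient was 1.01 for cox16 over SPNCRNA.895 and 0.707 for mug134 over SPAC10F6.17c. The excess of mvd1 was then below 0, at -114.9 Lsm8 IP reads. With the median scaling, the ratio of the first partner divided by that of the second was 0.889 for cox16 over SPNCRNA.895, 0.547 for mug134 over SPAC10F6.17c and 6.61 for cox8 over mvd1.

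A quotient of the partners' read counts within one library needs no scaling between libraries. The cox16 count divided by the SPNCRNA.895 count was 1.03 (0.971 to 1.08) in the Lsm8 IP, against 1.15 (0.735 to 1.82) in the control IP, so the partners had nearly equal counts in both. The counts differed by 67 reads in the Lsm8 IP and by 6 reads in the control IP, although cox16 is the longer gene. The mug134 count divided by the SPAC10F6.17c count was 1.13 (1.05 to 1.22) in the Lsm8 IP, against 2.07 (1.5 to 2.88) in the control IP, intervals that do not overlap. The cox8 count divided by the mvd1 count was 0.822 (0.774 to 0.873) in the Lsm8 IP, against 0.124 (0.0887 to 0.170) in the control IP, which is the widest gap of the 3. These intervals treat the partners' reads as separate, and a read counted for both genes enters both sides of the quotient.

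Such a move toward equal counts was not general among overlapping genes. Of 2168 pairs of listed genes that overlap on opposite strands, 1810 had at least 10 reads for each partner in each IP. In 898 of these (49.6%) the partner ratio was closer to 1 in the Lsm8 IP than in the control IP. The median absolute log2 partner ratio over the 1810 pairs was 0.55 in the Lsm8 IP, against 0.62 in the control IP. Only genes matched to ASM294v3 could enter these pairs. Of the 1810 pairs, 6 had both partners enriched, the 3 described here among them, and 7 had 1 partner enriched. The other 3, named after their values were seen, were SPAC343.12 with SPAC343.20 (ratios 2.53 and 2.40), SPAC3H5.04 with SPAC3H5.05c (4.52 and 4.93) and SPBC16E9.18 with SPSNORNA.39 (34.7 and 112.9). In 5 of the 6 pairs the partner ratio was closer to 1 in the Lsm8 IP, the exception being SPAC343.12 with SPAC343.20, and both partners of these pairs were selected by the enrichment rule.

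The stranded RNA-Seq libraries, in which the partners are told apart, gave partner ratios on the side of the control IP. For cox8 over mvd1 the ratio of counts was 0.154, 0.136 and 0.143 in the pof8Δ libraries, against 0.146, 0.183 and 0.146 in the pof8+ libraries. All 6 lie far below the 0.822 of the Lsm8 IP, and 5 of them lie within the interval of the control IP. For mug134 over SPAC10F6.17c the ratio was 2.10, 2.07 and 1.70 in pof8Δ, against 1.95, 2.22 and 1.98 in pof8+. All 6 lie above the 1.13 of the Lsm8 IP and within the interval of the control IP. The assays differ in strandedness, read length, depth and RNA selection, and the part of each in this contrast was not tested.

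**Figure D3:**
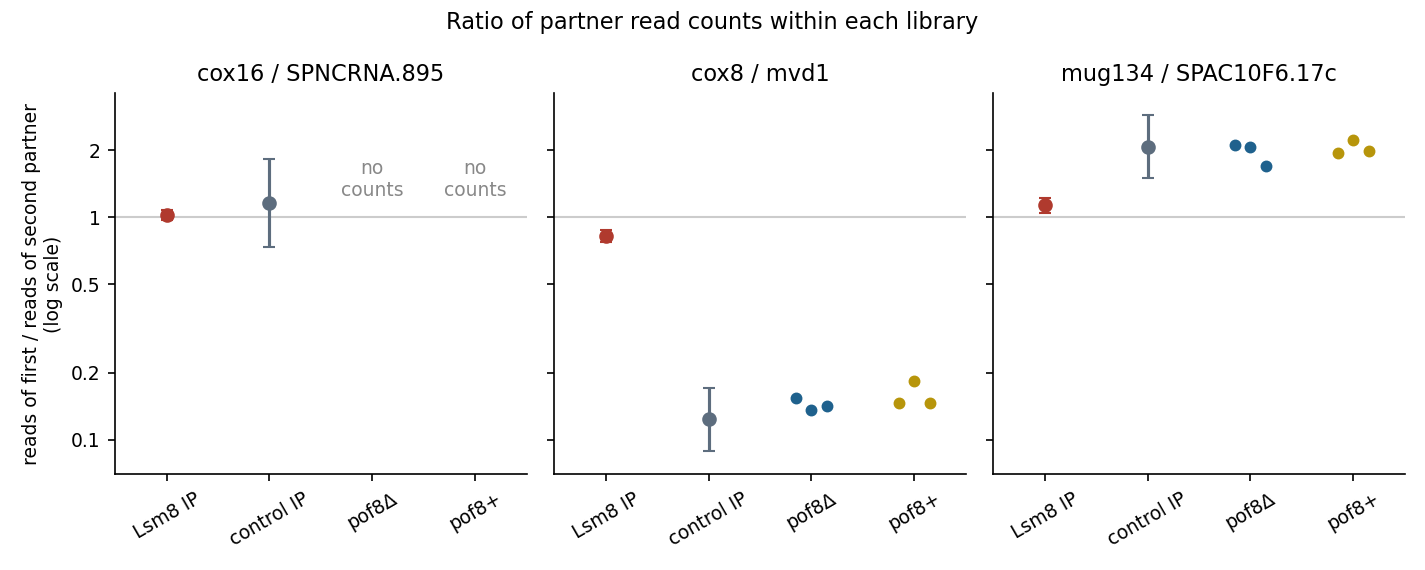
Reads of the first partner divided by reads of the second within each library, on a log scale, for the Lsm8 IP and control IP (1 library each, bars are exact 95% intervals for counting error) and for each pof8Δ and pof8+ RNA-Seq library. For cox8 over mvd1 the Lsm8 IP stands at 0.822, and the control IP and the 6 RNA-Seq libraries lie between 0.124 and 0.183.

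The partner ratios of pof8Δ and pof8+ are given side by side, since with 3 libraries against 3 the smallest p the exact permutation test allows is 0.1 and no difference of any size could be called. The mean log2 ratio of cox8 over mvd1 was -2.79 ± 0.09 in pof8Δ and -2.66 ± 0.19 in pof8+ (SD, n = 3 each), a difference of -0.13 (exact two-sided permutation test, p = 0.4, adjusted p = 0.7). For mug134 over SPAC10F6.17c it was 0.96 ± 0.17 in pof8Δ and 1.03 ± 0.10 in pof8+ (SD, n = 3 each), a difference of -0.07 (exact two-sided permutation test, p = 0.7, adjusted p = 0.7). The groups overlapped in both pairs. The p-values were adjusted over the 2 pairs with counts of both partners.

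At the cox8 and mvd1 locus, a second antisense RNA allowed the mvd1 reads to be set beside those of both opposite-strand genes. SPNCRNA.878 (1715 nt) covers 1311 nt of mvd1, 1140 nt of them coding, and a gap of 327 nt separates it from cox8. It had 309 Lsm8 IP reads, against 283 in the control IP, a ratio of 0.421 (0.357 to 0.496). The cox8 count was 82.2% of the mvd1 count in the Lsm8 IP, against 12.4% in the control IP. The SPNCRNA.878 count was 13.1% of it in the Lsm8 IP, against 79.9% in the control IP. The counts of cox8 and SPNCRNA.878 add up to 2255 reads beside 2367 for mvd1 in the Lsm8 IP, and to 327 beside 354 in the control IP. Taking the cox8 count off the mvd1 count left 421 reads in the Lsm8 IP, against 310 in the control IP. With the median scaling, their ratio was 0.523 (0.451 to 0.608). How far mvd1, cox8 and SPNCRNA.878 share reads was not tested.

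The excess did not extend to the next genes on either side. Beside cox16, mrpl19, a mitochondrial ribosomal protein gene, had 19 reads in the Lsm8 IP, against 18 in the control IP (ratio 0.407), and nob1, a ribosome biogenesis gene, had 125 and 57 (ratio 0.845). Beside the cox8 and mvd1 pair, cyt2, which encodes cytochrome c1 heme lyase, had 42 reads in the Lsm8 IP, against 34 in the control IP (ratio 0.476), and the Mediator gene med9 had 24 and 17 (ratio 0.544). Beside mug134, the non-coding RNA SPNCRNA.728 had 83 reads in the Lsm8 IP, against 31 in the control IP (ratio 1.03), and alg13, a gene of protein glycosylation beside SPAC10F6.17c, had 24 and 16 (ratio 0.578). The ratios of the 6 neighbors lie between 0.407 and 1.03, below the lowest ratio of the 6 paired genes. The paired genes were chosen for high ratios and the median over all genes with reads was 0.915, so this order is a description and not a test. The annotated RNAs SPNCRNA.3433 and SPNCRNA.3434, which overlap cox16, and SPNCRNA.2543, which overlaps mug134, are not among the 7014 listed genes.

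**Figure D4:**
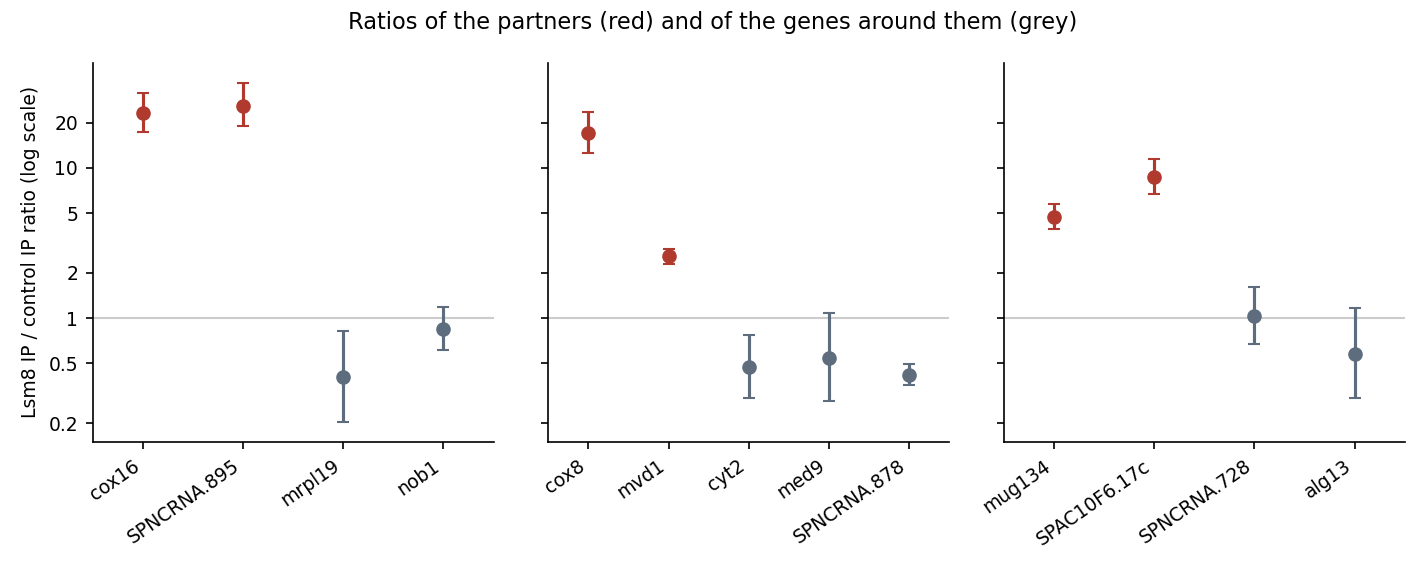
Lsm8 IP to control IP ratios, on a log scale with exact 95% intervals for counting error, of the partners (red) and of the nearest or overlapping listed genes (grey) at the 3 loci. The partners lie between 2.58 and 26.0 and the grey genes between 0.407 and 1.03.

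In 5 lists of genes that act with the encoded proteins, the enrichment rule was met by cox8, cox16, mvd1 and mug134 alone. These genes were chosen for that signal. Of all 7014 listed genes, 35 (0.499%) met the rule, so lists this short would seldom hold another, and nothing is read from its absence. Of 8 nuclear-encoded subunits of cytochrome c oxidase, cox8 was the 1 enriched and the 1 with a ratio above 2. Such a ratio was found for 17.1% of the 6480 genes with reads and an assigned control IP count. That set leaves out the 98 genes with reads in the control IP alone. The median ratio of the 8 was 1.08 and the lowest was that of the subunit gene cox5, with 59 reads in the Lsm8 IP, against 153 in the control IP (0.149). The mitochondrially encoded cox1, cox2 and cox3 were not matched by symbol. Of 21 assembly factors of that enzyme, 18 had reads in both IPs. Of these 18, cox16 was the 1 enriched and 5 had a ratio above 2, with a median of 1.08 and the lowest ratio at cmc4 (0.385, from 3 reads in each IP). Of 22 genes of mevalonate and ergosterol synthesis, mvd1 was the 1 enriched and 4 had a ratio above 2, with a median of 1.23. The mvd1 count may include reads of cox8, since the IP reads carry no strand. The highest ratio in that list was that of the sterol reductase gene erg24, with 86 reads in the Lsm8 IP, against 9 in the control IP (3.68), and the lowest that of erg26 (0.390). Of 8 genes of the endosulfine and phosphatase 2A pathway, mug134 was the 1 enriched and the 1 above a ratio of 2, with a median of 1.02 and the lowest ratio at the catalytic subunit gene ppa2 (0.473). The 5 pyruvate dehydrogenase genes had a median ratio of 0.476, between 0.369 for dld1 and 1.82 for pdx1, and 0 were enriched. Over all genes with reads the median ratio was 0.915.

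To ask whether the mRNAs depend on Pof8, their levels in pof8Δ and pof8+ cells were compared in an edgeR fit (quasi-likelihood test), and p-values were adjusted over the 40 RNAs by the Benjamini-Hochberg method. Levels are given as CPM, the read count scaled to the library total times its TMM factor. CPM are shares of a library, so fewer expressing cells and less RNA per cell cannot be told apart. The call required a log2 fold change beyond 1 in either direction together with an adjusted p below 0.05. Of the 5 genes, 0 were called in either direction, against 1 RNA called lower (2.5%), the telomerase RNA ter1, and 0 called higher (0%) among the 40. At an unadjusted p below 0.05, 0 of the 5 genes and 7 of the 40 RNAs (17.5%) passed, and 0 of the 5 were called by DESeq2's Wald test.

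The cytochrome c oxidase genes were at different levels. For cox16 the pof8Δ libraries had 7.08, 8.76 and 8.51 CPM, against 6.75, 6.91 and 7.81 CPM in the pof8+ libraries. The groups overlapped, and the log2 fold change was 0.18 (SE 0.12, 95% interval -0.09 to 0.46, edgeR adjusted p = 0.50). For cox8 the values were 36.9, 31.9 and 32.6 CPM in pof8Δ, against 32.8, 41.1 and 33.1 CPM in pof8+. Here too the groups overlapped, pof8+ replicate 2 was the highest library, and the log2 fold change was -0.08 (SE 0.12, 95% interval -0.35 to 0.20, edgeR adjusted p = 0.722). Without pof8+ replicate 2 it was 0.04.

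The mvd1 mRNA was the most abundant of the 5 in CPM and varied least relative to its level. It had 239, 233 and 228 CPM in pof8Δ, against 224, 224 and 226 CPM in pof8+. The groups did not overlap, yet the log2 fold change was 0.06 (SE 0.07, 95% interval -0.11 to 0.22, edgeR adjusted p = 0.683). Groups that do not overlap were seen for 2 of the 5 genes and for 11 of the 40 RNAs (27.5%).

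The other gene without overlap was mug134, with 136, 132 and 114 CPM in pof8Δ, against 139, 147 and 140 CPM in pof8+. Replicate 3 of pof8Δ was the lowest library, and the log2 fold change was -0.15 (SE 0.09, 95% interval -0.37 to 0.06, edgeR adjusted p = 0.50). Its partner SPAC10F6.17c had 64.9, 63.8 and 67.3 CPM in pof8Δ, against 70.9, 66.0 and 70.8 CPM in pof8+. The groups overlapped, with a log2 fold change of -0.08 (SE 0.07, 95% interval -0.26 to 0.09, edgeR adjusted p = 0.503). The median log2 fold change was -0.08 over the 5 genes, 3 of them below 0, and -0.10 over the 40 RNAs, 31 of them below 0. With scaling factors computed over the 40 RNAs alone, by TMM or by DESeq2, the median of the 40 moved to 0.03 or 0.02, cox8 and SPAC10F6.17c turned to values above 0, and 1 of the 5 genes was below 0. All 5 intervals lie inside the threshold of 1 in either direction.

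**Figure D5:**
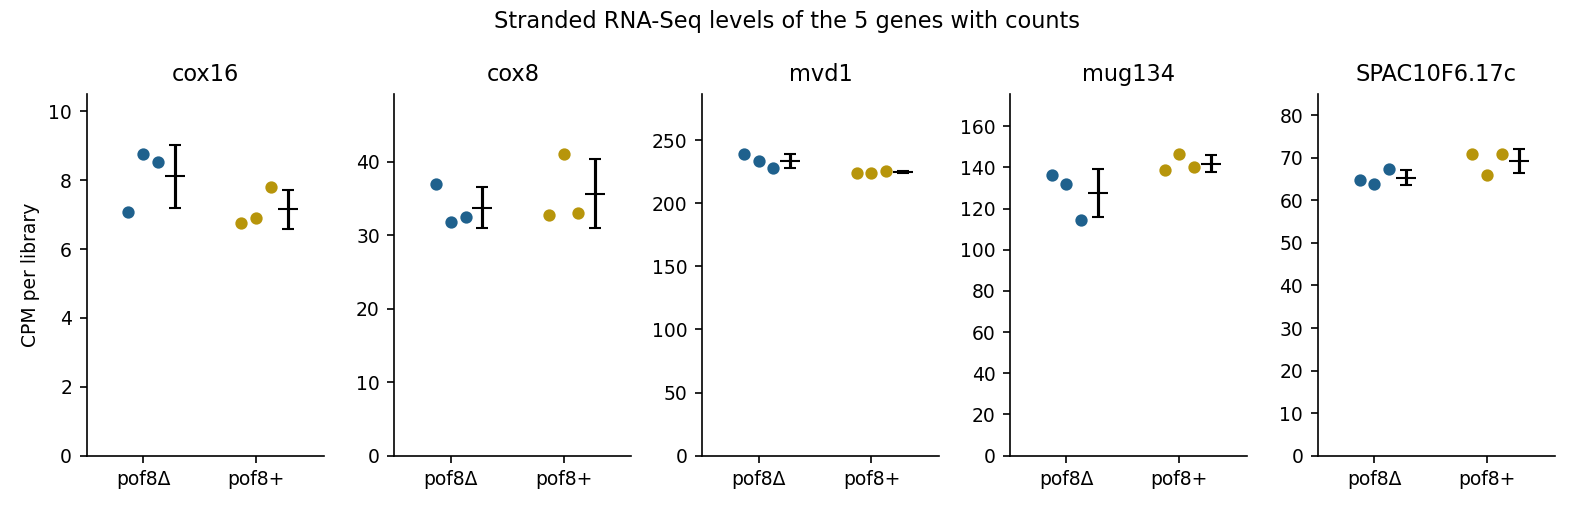
CPM in each of the 3 pof8Δ (blue) and 3 pof8+ (yellow) RNA-Seq libraries for the 5 genes with counts, each panel starting at 0. Black marks are the mean ± SD of each group (n = 3). The groups overlap for cox16, cox8 and SPAC10F6.17c.

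Per length, the cox8 and mvd1 mRNAs were at similar levels, whereas SPAC10F6.17c was below mug134 and cox16 was low. The authors' average RPKM, which divides by the length they used for each gene, was 106.6 for cox8 and 102.8 for mvd1, 114.0 for mug134 and 33.7 for SPAC10F6.17c, and 3.62 for cox16. The cox16 mRNA ranked 37 of the 40 RNAs on this scale, while cox8, mvd1 and mug134 ranked 24, 25 and 23. Raw reads per kilobase of the same length are given as a description of the gene counts in each IP. The IP reads carry no strand, and 99.8% of cox8 lies within mvd1. A count may therefore include reads of the partner, so these values do not compare the levels of the partner mRNAs. The values are also not scaled for library depth, so they do not compare the Lsm8 IP with the control IP. They were 5988 for cox8 and 1060 for mvd1 in the Lsm8 IP, and 135.4 and 158.5 in the control IP. For mug134 and SPAC10F6.17c they were 1251 and 653.5 in the Lsm8 IP, against 101.6 and 29.0 in the control IP. For the cox16 gene they were 1271 in the Lsm8 IP, against 21.2 in the control IP. That count may include reads of SPNCRNA.895, so it is not a value of the cox16 mRNA. The length behind the authors' RPKM was 325 nt for cox8 and 2000 nt for SPAC10F6.17c, where the exons in ASM294v3 sum to 252 nt and 1727 nt.

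Across the 6 RNA-Seq libraries, the levels of partners did not follow each other closely. Pearson's r of log2 CPM was -0.04 for cox8 with mvd1 and 0.13 for mug134 with SPAC10F6.17c. Outside its pair, cox8 was most like the mitochondrial gene atp9 (r = 0.92) and mug134 most like the glutaredoxin gene grx1 (r = 0.90). The mvd1 mRNA was most like hrf1 (r = 0.86), cox16 most like the non-coding RNA SPNCRNA.1464 (r = 0.64), and SPAC10F6.17c most like ter1 (r = 0.63). Each r rests on 6 libraries that all genes share and is the highest among the listed RNAs, so it is given as a description.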

How the data were processed

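RNA-Seq (3 pof8Δ and 3 pof8+ libraries) and RIP-Seq (1 Lsm8 IP and 1 control IP library) were analyzed. The 6 genes, the pathway lists and the tests were chosen with earlier results of these data known. According to their methods and the submitters' processing notes, the authors aligned the unstranded single-end RIP-Seq reads to ASM294v2 with STAR 2.5.2b, counted unambiguous uniquely mapped reads per gene with a custom script, and deposited for each gene a signal (the Lsm8 IP count over that library's median count) and a ratio of the Lsm8 IP signal over the control IP signal. How a read in an overlap was assigned is not given in the sources used here. For RNA-Seq, the authors deposited raw counts of stranded reads for 40 RNAs that were chosen for their Lsm8 IP values, with an average RPKM and an average log2 CPM from edgeR 3.14.0. Columns with the authors' fold changes, likelihood ratios, p-values and enriched mark were not used, and 0 columns of other samples were present.

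Lsm8 IP reads were worked back as 96 times the signal, and control IP reads as 37 times the signal divided by the ratio. The results were whole within 1e-06 for 7014 of 7014 genes in the Lsm8 IP and for 6323 of 6323 genes with reads in both IPs. Control IP counts of the 98 genes with reads there alone were not recovered and are not in its total. RNA-Seq library totals and TMM factors (0.929236 to 1.098284) were worked back from the average RPKM and average log2 CPM, which they return for all 40 RNAs. The scaling is therefore the authors' own. Counts were fitted with edgeR 4.0.16 in R 4.3.3 (quasi-likelihood test, p-values adjusted by Benjamini-Hochberg across the 40 RNAs), after a filter of at least 1 CPM in 3 libraries that removed none. DESeq2 1.42.0 was an alternative, and Python 3.11.15 with SciPy 1.17.1 and pandas 2.3.3 served for the rest. Of the 7014 genes, 6846 were matched to ASM294v3, which gave strands, lengths, overlaps and positions relative to the partners. No genome coordinates or sequences from it are given. Replicate numbers are those of the labels.

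Genes named were the 6 genes, the nearest annotated gene on each side of a pair that the table lists, genes that overlap a partner, the enriched, highest and lowest genes of each pathway list, and the RNA most correlated with each gene. Genes next to the thresholds were named after their values were seen. Alternatives covered scaling, thresholds, filters, pseudocounts, the kind of test, a block for replicate number, and fits that leave out 1 library.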

Additional observations from a re-analysis of the deposited data

How the results depend on the processing

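With the IP libraries scaled to their totals, of which the control IP total is assigned reads, the ratios were 8.56 for cox16, 9.63 for SPNCRNA.895, 6.31 for cox8, 1.76 for mug134, 3.21 for SPAC10F6.17c and 0.954 for mvd1, the last on the other side of 1. Then 3 of the 6 genes (cox16, SPNCRNA.895 and cox8) and 18 of all genes were enriched, against 35. The quotient of partner excesses was then 0.707 for mug134 over SPAC10F6.17c and -14.3 for cox8 over mvd1, where the mvd1 excess was below 0, an alternative added after seeing the data. With totals that leave out the snRNAs, the ratio of mvd1 was 3.16 and that of mug134 was 5.81. The other ratios were 28.3 for cox16, 31.9 for SPNCRNA.895, 20.9 for cox8 and 10.6 for SPAC10F6.17c. All 6 genes and 41 of all genes were then enriched. With a ratio above 4 required, mvd1 was the 1 of the 6 genes no longer enriched. Without a minimum difference, 1110 genes were enriched. For RNA-Seq, TMM factors over the 40 RNAs and DESeq2 size factors over them gave log2 fold changes of 0.051 and 0.042 for cox8 and of 0.040 and 0.034 for SPAC10F6.17c, and moved the median of the 40 RNAs to 0.03 and 0.02. The cause of these shifts was not tested. The number of the 40 RNAs called was 2 with an absolute log2 fold change above 0.58, 2 with the adjusted p alone, and 1 to 2 with 1 library left out (2 without pof8+ replicate 3, pof8Δ replicate 1 or pof8Δ replicate 3). Leaving out 1 library gave log2 fold changes of 0.12 to 0.27 for cox16, -0.15 to 0.036 for cox8 (0.036 without pof8+ replicate 2), 0.04 to 0.07 for mvd1, -0.20 to -0.08 for mug134 and -0.12 to -0.07 for SPAC10F6.17c. The change of the cox8 over mvd1 log2 ratio was -0.18 to -0.02, and that of mug134 over SPAC10F6.17c was -0.13 to 0.026, with 0.026 without pof8Δ replicate 3. In a fit with replicate blocks, log2 fold changes were 0.18 for cox16, -0.07 for cox8, 0.06 for mvd1, -0.16 for mug134 and -0.08 for SPAC10F6.17c, and 0 of the 5 genes and 1 of the 40 RNAs were called. Same-numbered libraries of pof8Δ and pof8+ had correlations of 0.34, -0.68 and 0.20, which differ in sign. With so few libraries they cannot settle whether the numbers pair the libraries. Over the 13 alternatives with a fit, adjusted p-values of the 5 genes were 0.201 to 0.935 and 0 of the 5 were called, while 1 of the 5 had an unadjusted p below 0.05 with DESeq2 size factors and 1 without pof8Δ replicate 1. With 1 library per IP, no spread between IPs was measured.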
